A study of Homo sapiens with 6 samples.

Results

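A set of 10 genes of the NF-kappaB pathway and its inflammatory output was followed in KO52 cells: the subunit genes NFKB1, NFKB2 and RELB, the feedback inhibitors NFKBIA and TNFAIP3, the feedback and survival gene BIRC3, the cytokine genes TNF, IL1B and IL18, and the adhesion gene ICAM1. They were chosen by name as genes that encode NF-kappaB proteins or non-chemokine targets, to ask whether the fall of chemokine RNA under dnFOS extends to other NF-kappaB output. They are 10 of the 60612 gene IDs in the deposited tables, and all 10 were among the 15395 genes with enough counts to be tested.

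RNA-seq was carried out on 6 libraries of KO52, an established acute myeloid leukemia cell line with the CEBPA double mutant genotype, with 2 libraries in each of 3 groups. All cells carried a lentiviral Tet-on vector of the pCW57.1 backbone, from which doxycycline induces the insert: dnCEBP, a dominant negative peptide that pairs with C/EBP proteins and takes them off DNA, dnFOS, a peptide that does the same to AP-1 proteins, or neither (empty vector, EV, which expresses GFP). Per the study's methods, doxycycline-treated cells were sorted for GFP before RNA was extracted. The induction time of these libraries is not given in the sources used here. All groups are of 1 cell line. Whether the 2 libraries of a group came from separate cultures is not given in the labels, so that p-values measure the spread between these libraries only, which may be technical. Because the peptides act on proteins, the RNA of the genes they target does not check the labels: FOS lay between 22.2 and 30.9 CPM (read counts scaled to library size with TMM factors, the unit of all levels here) over the 6 libraries. CEBPA was at 393 and 382 CPM in EV, 389 and 345 CPM in dnCEBP, and 477 and 479 CPM in dnFOS. Its log2 fold change in dnFOS against EV was 0.30 ± 0.085 SE (edgeR adjusted p = 0.0145).

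NF-kappaB is a family of dimers held in the cytoplasm by inhibitor proteins until receptors such as those for TNF, IL-1 or bacterial products activate the IkappaB kinases, which mark the inhibitors for breakdown. The dimers then enter the nucleus and switch on cytokines, chemokines, adhesion molecules and survival genes, and with them their own inhibitors, so that NFKBIA and TNFAIP3 RNA is a common readout of pathway activity. Many inflammatory promoters bind NF-kappaB together with AP-1 or C/EBP proteins, and the pathway is often active without stimulation in acute myeloid leukemia.

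Promoter sequence was taken from RefSeq (GRCh38.p14), which held at least 1 window of 250 bases upstream of a start for 8 of the 10 genes (11 windows). RELB and IL18 were not among the windows. Each window was searched on both strands for the 10-base kappaB consensus, the AP-1 letters TGANTCA and the C/EBP letters TTNCNNAA. Stretches of genes called lower in dnFOS were to be printed only where a window held a kappaB match, so that a match was a condition. All 3 called genes, NFKBIA, TNFAIP3 and NFKB2, met it. The stretches run 5′ to 3′ on the gene's strand with each kappaB match in capitals. The NFKBIA window (chr14:35404750-35404999, minus strand) and window 3 of NFKB2 (chr10:102395455-102395704, plus strand) are given whole. For TNFAIP3 (chr6:137867188-137867217, plus strand) and window 2 of NFKB2 (chr10:102394461-102394490, plus strand), whose windows include 71 and 250 bases annotated as exon in GENCODE 29, 30 bases around the matches are given.
NFKBIA: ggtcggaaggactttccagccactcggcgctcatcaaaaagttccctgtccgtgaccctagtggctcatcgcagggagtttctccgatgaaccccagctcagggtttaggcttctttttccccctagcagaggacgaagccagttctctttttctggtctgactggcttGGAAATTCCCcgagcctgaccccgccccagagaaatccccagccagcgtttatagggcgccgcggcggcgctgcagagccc
NFKB2, window 3: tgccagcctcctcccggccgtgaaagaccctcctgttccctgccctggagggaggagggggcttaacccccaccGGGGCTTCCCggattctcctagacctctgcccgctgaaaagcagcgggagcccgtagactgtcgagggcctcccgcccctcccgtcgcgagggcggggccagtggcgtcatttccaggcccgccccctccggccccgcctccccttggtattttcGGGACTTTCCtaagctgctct
TNFAIP3: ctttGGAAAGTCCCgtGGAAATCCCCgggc
NFKB2, window 2: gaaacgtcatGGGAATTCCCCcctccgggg

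The kappaB consensus was found in 6 of the 11 windows, of 5 genes (NFKBIA, TNFAIP3, NFKB2, NFKB1 and BIRC3), against 5.21% of all 35116 windows of the table. Window 1 of NFKB2 (chr10:102393860-102394109), directly before the annotated gene start, held no match to any motif searched. Windows 2 and 3 of NFKB2 lie within the annotated gene. Counting the last base before the start as -1, the NFKBIA match began at -81 and those of TNFAIP3 at -67 and -55. Window 2 of NFKB2 held 3 matches, of which those at -107 and -106 overlap and are printed as 1 run of capitals, and the other, at -78, is outside the printed stretch. TNF, IL1B and ICAM1 had no match within their windows. Of these, the ICAM1 window includes 250 bases annotated as exon and the IL1B window 124, and window 1 of NFKB1 includes 241. The ICAM1 window holds ggaaattccg, which differs from the NFKBIA match in its last base. No match thus does not mean that no kappaB-like stretch is present. The AP-1 letters were in none of the 11 windows, against 6.57% of all windows. The C/EBP letters were in 4 of them, of IL1B, TNF, TNFAIP3 and NFKB2, against 33.2% of all windows, and the TNFAIP3 match and the one in window 3 of NFKB2 overlap a kappaB match. A match describes these letters only and says nothing on binding.

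**Figure D1:**
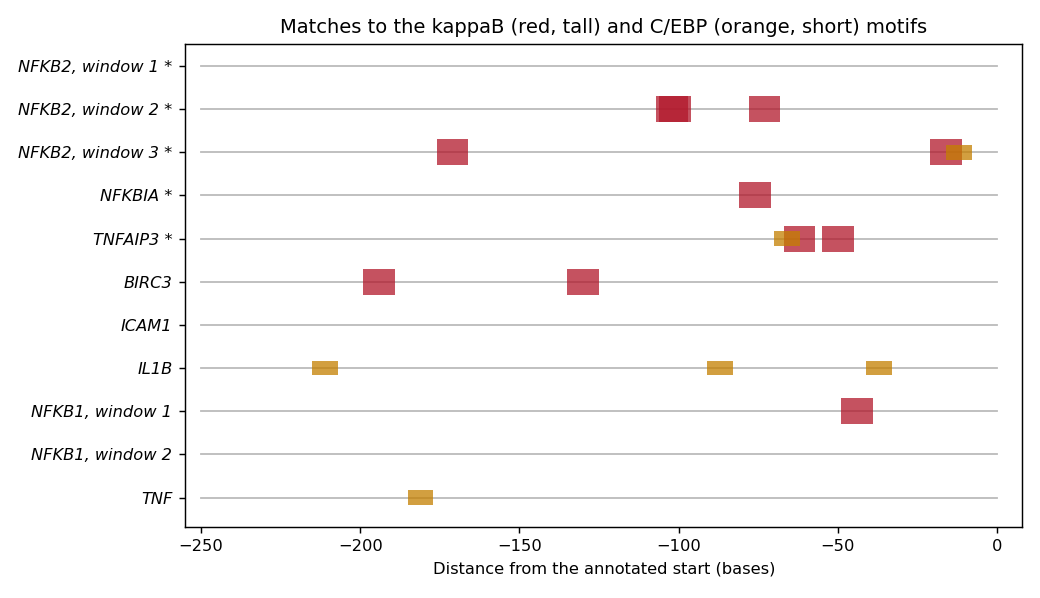
Positions of matches to the kappaB consensus (red, tall boxes) and to the C/EBP letters (orange, short boxes) in the 250 bases before each annotated start of 8 genes; the x axis gives the distance from the start in bases, and each line is 1 of the 11 windows. Asterisks mark the genes called lower in dnFOS against EV, and kappaB matches lie in windows of NFKB2, NFKBIA, TNFAIP3, BIRC3 and NFKB1.

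Total counts ran from 9862994 to 27663179 per library, and the dnFOS libraries were the shallowest, with 14583615 and 9862994. At 3 counts the floor was 0.108 to 0.304 CPM, and no library had fewer than 48 counts of any of the 10 genes. Of 8 myeloid blast markers, 6 had over 3 counts in every library, among them CD33, MPO, CD34 and KIT. ELANE (0 to 9 per library) and AZU1 (1 to 41) did not. AZU1 was counted 3 and 1 times under dnFOS, 12 and 7 times under dnCEBP, and 34 and 41 times under EV. For MPO the numbers were 2347 and 1448 under dnFOS, 1715 and 1097 under dnCEBP, and 5700 and 4238 under EV. These are raw counts, not scaled to depth. Of 6 mature monocyte or macrophage markers, 2 were detected in every library, CSF1R with 11 to 51 counts and VCAN with 7 to 35, while CD163 and FCGR3A had at most 3 counts and CD14 at most 6 in any library, and the list summed to 3.48 to 3.53 CPM in EV, 1.79 to 2.37 CPM in dnCEBP and at most 2.32 CPM in dnFOS. Of 6 T cell markers, CD3D (938 to 3885 counts), TRBC2 (230 to 627) and CD2 (12 to 63) were detected in every library. CD8A had at most 3 counts, CD3E at most 4 and CD3G at most 7, so that most counts of the list were those of CD3D. The T cell list summed to 137 to 144 CPM in EV, 169 to 172 CPM in dnCEBP and 114 to 127 CPM in dnFOS, an order that runs with that of TNF below, and its part in the TNF result was not tested.

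In dnFOS against EV, the inhibitors NFKBIA and TNFAIP3 and the subunit gene NFKB2 fell, while NFKB1, RELB, BIRC3, TNF, IL1B, IL18 and ICAM1 did not pass the test. Thus 3 of the 10 genes were called lower and 0 higher (edgeR's quasi-likelihood test, adjusted p under 0.05), where 15.0% of all tested genes were called in either direction, 7.76% lower and 7.24% higher. At an unadjusted p under 0.05 they were 5, with ICAM1 and RELB added, where 4291 of the 15395 genes tested passed it. The log2 fold changes were below 0 for 9 of the 10 genes (8 with library totals alone and 10 with the GC correction, which removes the trend on GC content and length), with a median of -0.38, against 0.00 over all genes tested. For 7 of the 10, both dnFOS libraries were below both EV libraries, as were 28.4% of all genes tested. Scaling by library totals alone raised the median of all genes to 0.10 and changed the split of calls over all genes from 1194 lower of 2309 to 676 lower of 2581, but the same 3 genes were called. In bulk RNA, fewer cells that express a gene and less RNA per cell cannot be told apart.

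**Figure D2:**
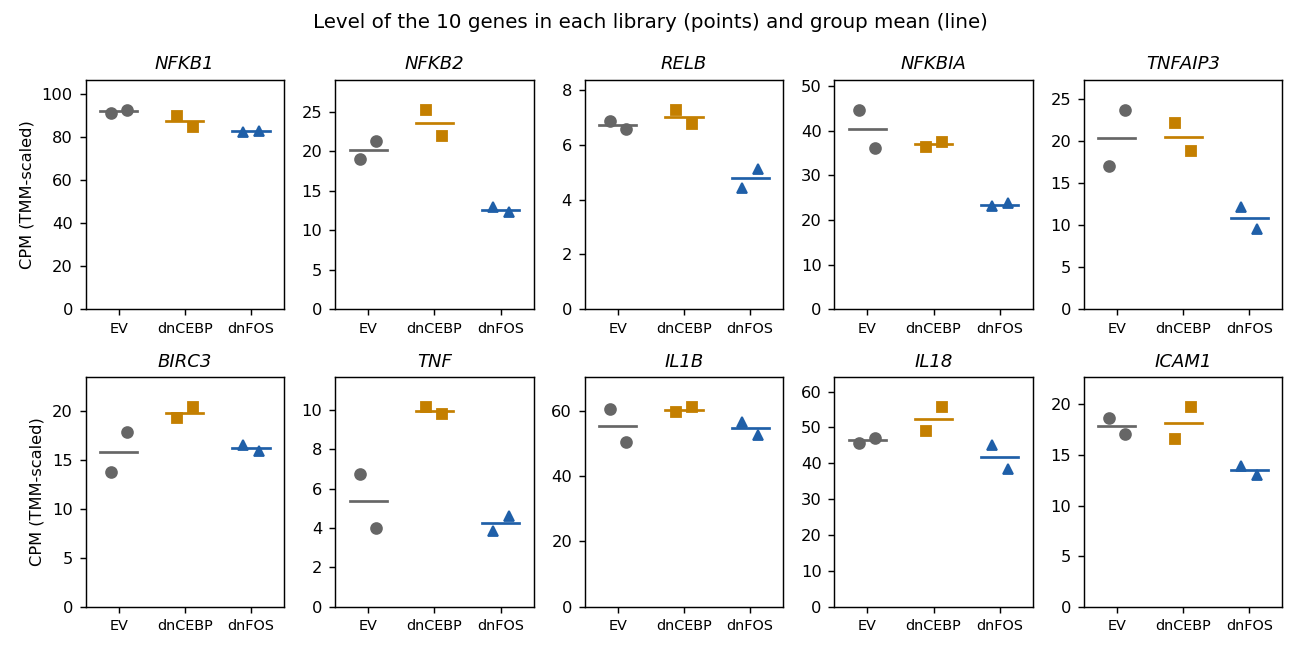
Level of each of the 10 genes in TMM-scaled CPM (y axis, from 0) in the 2 libraries of each group (points) with the group mean (line). In 7 genes (NFKBIA, TNFAIP3, NFKB1, NFKB2, RELB, IL18 and ICAM1) both dnFOS libraries lie under all 4 others, whereas IL1B and BIRC3 overlap between dnFOS and EV and TNF is highest in dnCEBP.

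NFKBIA (ENSG00000100906, chr14:35401511-35404749, minus strand) encodes IkappaB-alpha, the inhibitor that NF-kappaB dimers induce to end their own activity. It was at 44.7 and 36.2 CPM in EV, 36.3 and 37.6 CPM in dnCEBP, and 23.1 and 23.7 CPM in dnFOS. Both dnFOS libraries were below the other 4, and EV and dnCEBP overlapped. NFKBIA fell by 42.3% in dnFOS (log2 fold change -0.79 ± 0.12 SE, 95% interval -1.05 to -0.54, edgeR adjusted p = 5.53e-05). It did not pass the test in dnCEBP against EV (-0.13, interval -0.37 to 0.10, edgeR adjusted p = 0.712).

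TNFAIP3 (ENSG00000118503, chr6:137867188-137883312, plus strand) encodes A20, a ubiquitin-editing enzyme that shuts off signaling upstream of the kinases. Its level was 17.0 and 23.7 CPM in EV, 22.1 and 18.8 CPM in dnCEBP, and 12.2 and 9.57 CPM in dnFOS. The dnFOS libraries were again the lowest, although the EV libraries differed widely (20.4 ± 4.72 CPM, SD, n = 2). TNFAIP3 fell by 46.0% in dnFOS (-0.89 ± 0.17 SE, interval -1.24 to -0.54, edgeR adjusted p = 0.000679), and fell by 0.65 on the log2 scale without EV replicate 2 (adjusted p = 0.0270). In dnCEBP its log2 fold change was 0.01 (interval -0.31 to 0.32), and -0.01 when libraries were scaled by totals alone. An annotated antisense gene, AL357060.1, overlaps it with 19 to 45 counts per library, and whether counting used strand is not given in the sources used here.

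NFKB2 (ENSG00000077150, chr10:102394110-102402529, plus strand) encodes p100, which is cut to the p52 subunit of the non-canonical pathway and holds RelB dimers back until then. Its values were 19.0 and 21.3 CPM in EV, 25.3 and 22.0 CPM in dnCEBP, and 13.0 and 12.3 CPM in dnFOS. The 3 groups did not overlap, with dnFOS the lowest and dnCEBP the highest. NFKB2 fell by 37.3% in dnFOS (-0.67 ± 0.15 SE, interval -0.97 to -0.37, edgeR adjusted p = 0.0022). With the GC correction the fall was smaller, at -0.46 (adjusted p = 0.0172). The difference of dnCEBP from EV did not pass the test (0.23, interval -0.04 to 0.50, edgeR adjusted p = 0.523), nor with the GC correction (0.40, adjusted p = 0.0797).

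NFKB1 (ENSG00000109320, chr4:102501329-102617302, plus strand), the gene of p105 and its product p50, was measured at 91.4 and 92.9 CPM in EV, 90.2 and 85.1 CPM in dnCEBP, and 82.6 and 83.1 CPM in dnFOS. The groups did not overlap, but they lay close together. Its difference in dnFOS was -0.15 ± 0.086 SE (interval -0.33 to 0.02, edgeR adjusted p = 0.251), an interval that leaves out a fall as large as that of NFKB2 or NFKBIA.

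RELB (ENSG00000104856, chr19:45001430-45038198, plus strand) encodes the partner of p52 and is itself a target of the canonical pathway. It was the least counted of the subunit genes, with 6.88 and 6.59 CPM in EV, 7.29 and 6.76 CPM in dnCEBP, and 4.43 and 5.12 CPM in dnFOS. Both dnFOS libraries were below the other 4, which overlapped. The difference from EV, -0.51 ± 0.22 SE, did not pass the test (interval -0.95 to -0.06, edgeR adjusted p = 0.120), and with the GC correction it was -0.24. At 53 to 197 counts per library, a fall the size of that of NFKB2 was within the interval.

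BIRC3 (ENSG00000023445, chr11:102317450-102339403, plus strand) encodes cIAP2, a ubiquitin ligase in TNF receptor complexes and a common NF-kappaB target. It was present at 13.7 and 17.8 CPM in EV, 19.3 and 20.4 CPM in dnCEBP, and 16.5 and 16.0 CPM in dnFOS. The dnFOS libraries lay between the EV libraries, and both dnCEBP libraries were above the other 4. Neither peptide changed BIRC3 past the threshold: in dnFOS the difference was 0.05 ± 0.15 SE (interval -0.26 to 0.36, edgeR adjusted p = 0.878), and -0.26 with the GC correction. In dnCEBP it was 0.33 ± 0.14 SE (interval 0.04 to 0.63, edgeR adjusted p = 0.349).

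ICAM1 (ENSG00000090339, chr19:10270835-10286615, plus strand) encodes an adhesion molecule that binds leukocyte integrins. It stood at 18.7 and 17.0 CPM in EV, 16.6 and 19.7 CPM in dnCEBP, and 13.9 and 13.1 CPM in dnFOS. The dnFOS libraries were the lowest, and the other groups overlapped. Its difference in dnFOS, -0.40 ± 0.15 SE, missed the threshold (interval -0.71 to -0.09, edgeR adjusted p = 0.0731). With the GC correction it was -0.26 (adjusted p = 0.252), and with the replicate number as a block the gene was called (adjusted p = 0.0393).

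**Figure D3:**
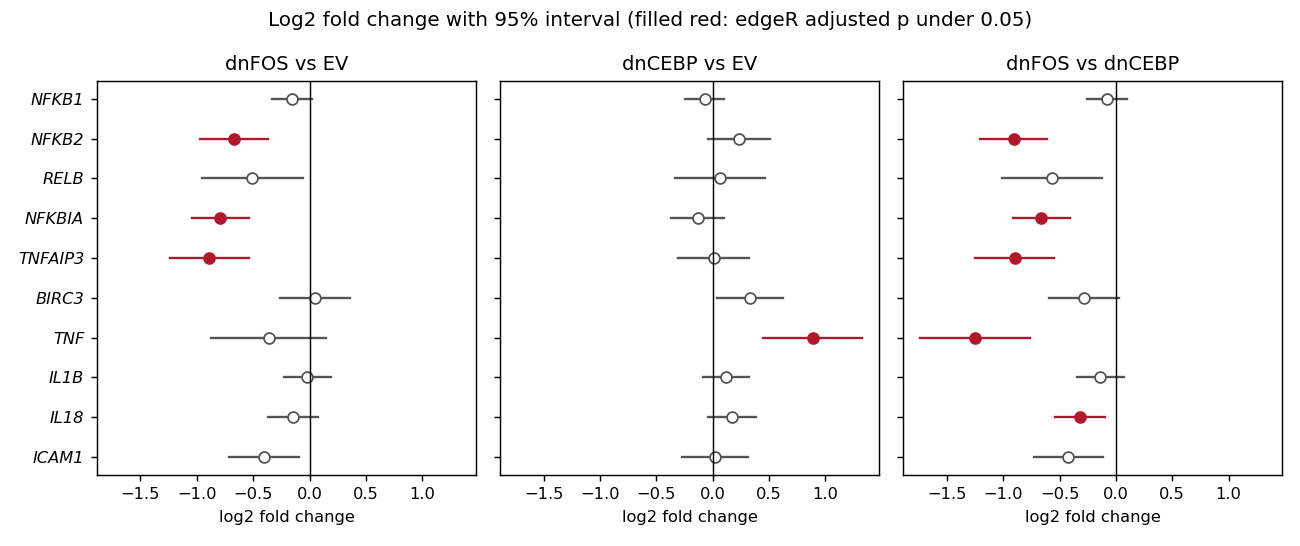
Log2 fold change (x axis) of the 10 genes in the 3 contrasts, with 95% intervals from the edgeR fit; filled red points passed an adjusted p of 0.05 over all genes. NFKBIA, TNFAIP3 and NFKB2 lie to the left of 0 against both EV and dnCEBP, IL1B is near 0 in all 3 panels, and TNF lies to the right in dnCEBP and to the left in dnFOS against dnCEBP.

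None of the 3 cytokine genes passed the test in dnFOS against EV. IL1B (ENSG00000125538, chr2:112829751-112836903, minus strand), whose product is the fever cytokine interleukin-1 beta, was at 60.4 and 50.5 CPM in EV, 59.5 and 61.0 CPM in dnCEBP, and 56.7 and 52.6 CPM in dnFOS. The dnFOS libraries lay inside the range of EV. Its difference in dnFOS was -0.02 ± 0.10 SE (interval -0.23 to 0.19, edgeR adjusted p = 0.924), and 0.08 with library totals alone. A fall the size of that of NFKBIA, TNFAIP3 or NFKB2 was outside the interval.

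IL18 (ENSG00000150782, chr11:112143251-112164117, minus strand), which encodes interleukin-18, another cytokine released after cleavage by caspase-1, was at 45.7 and 47.1 CPM in EV, 49.0 and 55.6 CPM in dnCEBP, and 45.1 and 38.4 CPM in dnFOS. The groups did not overlap, although dnFOS replicate 1 was within 1 CPM of EV replicate 1. Its difference in dnFOS was -0.15 ± 0.11 SE (interval -0.37 to 0.08, edgeR adjusted p = 0.413). It was -0.29 with the GC correction (adjusted p = 0.0507), and ran from -0.27 to -0.04 with each library left out, nearest to 0 without dnFOS replicate 2.

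TNF (ENSG00000232810, chr6:31575567-31578336, plus strand), the gene of the cytokine that activates the canonical pathway and is induced by it, varied between the EV libraries. Its levels were 6.75 and 3.98 CPM in EV, 10.1 and 9.80 CPM in dnCEBP, and 3.84 and 4.64 CPM in dnFOS. The dnCEBP libraries were above the other 4, while dnFOS overlapped EV replicate 2, which had 87 counts. In dnFOS against EV the difference was -0.36 ± 0.25 SE (interval -0.87 to 0.15, edgeR adjusted p = 0.369), and 0.08 without EV replicate 1.

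In dnCEBP against EV, TNF rose by 84.9% and was the only one of the 10 genes to pass the test, where 1.07% of all genes tested were called, 0.448% lower and 0.624% higher. The log2 fold change of TNF was 0.89 ± 0.21 SE (interval 0.45 to 1.32, edgeR adjusted p = 0.0306). The call was lost with DESeq2 (adjusted p = 0.103) and with library totals alone (adjusted p = 0.0665), and without dnCEBP replicate 1 (log2 fold change 0.86), dnCEBP replicate 2 (0.91) or EV replicate 2 (0.56, adjusted p = 0.412). Of the 10 genes, 4 had both dnCEBP libraries above both EV libraries (TNF, NFKB2, BIRC3 and IL18) and 1 had both below (NFKB1), where 21.9% and 20.9% of all genes tested did so. The median log2 fold change of the 10 was 0.09, and 2 of them were below 0 (4 with library totals alone). NFKBIA, TNFAIP3, RELB, IL1B and ICAM1 overlapped between the groups, with log2 fold changes from -0.13 to 0.12.

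Comparing the peptides directly, dnFOS against dnCEBP, 5 of the 10 genes were called lower and 0 higher, where 14.7% of all tested genes were called, 7.84% lower and 6.83% higher. TNF was 57.9% lower by the fitted change (-1.25 ± 0.24 SE, edgeR adjusted p = 0.000479). NFKB2 followed at -0.91 ± 0.15 SE (adjusted p = 5.69e-05), TNFAIP3 at -0.90 ± 0.17 SE (adjusted p = 0.000484) and NFKBIA at -0.66 ± 0.12 SE (adjusted p = 0.000397), all by edgeR. IL18 passed narrowly at -0.32 ± 0.11 SE (edgeR adjusted p = 0.0472), a call that was lost with DESeq2 and limma-voom, with library totals alone, and without dnCEBP replicate 2 (-0.23), dnFOS replicate 2 (-0.21), EV replicate 1 (-0.32) or EV replicate 2 (-0.33). BIRC3, at -0.28 (adjusted p = 0.224), was called with the GC correction (-0.48, adjusted p = 0.0122), and ICAM1, at -0.42 (adjusted p = 0.0595), with the replicate block (0.0309) and with only the 4 libraries compared (0.0485). All 10 genes had both dnFOS libraries below both dnCEBP libraries, as had 25.9% of all genes tested, and the median log2 fold change was -0.49 against 0.02 over all genes. With library totals alone NFKB1 turned to 0.04, 9 genes remained below 0, and the calls over all genes changed from 1207 lower of 2259 to 714 lower of 2815. The comparisons with EV and between peptides share libraries and are not independent of each other.

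For levels compared between genes, CPM was divided by exonic length in kilobases. In EV the order began with IL1B at 17.9 ± 2.26, IL18 at 17.6 ± 0.37, NFKBIA at 17.0 ± 2.55 and NFKB1 at 14.7 ± 0.17 CPM per kb (SD, n = 2), neighbors that did not differ beyond their spread. A lower group followed, with ICAM1 at 4.82 ± 0.313, NFKB2 at 4.50 ± 0.361, TNFAIP3 at 4.03 ± 0.935 and TNF at 3.20 ± 1.17 CPM per kb, again neighbors within their SD. TNF did not differ beyond its spread from the gene after it, RELB. RELB at 2.22 ± 0.0671 and BIRC3 at 2.10 ± 0.385 CPM per kb were the lowest and were alike within their spread. In dnFOS, NFKBIA came to 9.85 ± 0.190 CPM per kb, below NFKB1 at 13.2 ± 0.0657, and TNFAIP3 came to 2.15 ± 0.365, next to BIRC3 at 2.16 ± 0.0552.

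The other NF-kappaB subunits and inhibitors gave 4 genes called lower and 0 higher of 15 tested in dnFOS against EV, with a median log2 fold change of -0.16, where 7.76% of all genes tested were called lower. RELA, the gene of the p65 subunit, was at 27.4 and 34.8 CPM in EV and 24.3 and 23.0 CPM in dnFOS (-0.39 ± 0.14 SE, edgeR adjusted p = 0.0473). That call was lost with DESeq2, limma-voom, library totals and the GC correction, and without EV replicate 2 (-0.23), dnFOS replicate 1 (-0.43) or dnFOS replicate 2 (-0.36). REL, which encodes c-Rel, was at 22.1 and 27.3 CPM in EV and 27.5 and 28.8 CPM in dnFOS and did not pass (0.19 ± 0.13 SE, adjusted p = 0.369; -0.03 with the GC correction). For NFKBIB, the gene of IkappaB-beta, the EV libraries held 153 and 152 counts and the dnFOS libraries 52 and 41, or -0.87 ± 0.24 SE (edgeR adjusted p = 0.0120), and was not called with the GC correction or without dnFOS replicate 1 (-0.75) or EV replicate 2 (-0.83). Below a fold of 1.5, TNIP1, which encodes a partner of A20, was at -0.50 ± 0.091 SE (adjusted p = 0.000354) and COMMD1, a gene whose product promotes removal of RelA, at -0.51 ± 0.17 SE (adjusted p = 0.0450), the latter not called with DESeq2, limma-voom or library totals, nor without either dnFOS library or EV replicate 1 (-0.34). The count over the list was 1 to 5 across the alternatives, with 1 without dnFOS replicate 1 and 2 with DESeq2, limma-voom or library totals and without dnFOS replicate 2 or EV replicate 2.

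Among 32 kinases and adaptors, 3 were called lower in dnFOS and 3 higher, and the median was -0.06. That is 18.8% of the list, near the 15.0% of all genes tested. The lower genes were TRAF2 (-0.49 ± 0.16 SE), an adaptor of TNF receptors, and RBCK1 (-0.51 ± 0.14 SE) and SHARPIN (-0.56 ± 0.18 SE), which encode subunits of the linear ubiquitin chain complex. The higher genes were TAB3 (0.41 ± 0.12 SE), an adaptor of the kinase TAK1, and BIRC2 (0.39 ± 0.099 SE) and XIAP (0.34 ± 0.11 SE), which encode inhibitor of apoptosis proteins related to BIRC3. All 6 changed by less than 1.5-fold. The list gave 0 calls without dnFOS replicate 2, without EV replicate 1 or with the GC correction, 2 without EV replicate 2, and 7 with library totals alone, all of them higher. In dnCEBP 0 of the 32 were called by edgeR, DESeq2 or limma-voom, where edgeR called 1.07% of all genes tested. With no low-count filter 1 was called, lower, as with the replicate block, and calls also arose with some single libraries left out. By edgeR 5 of the 32 had an unadjusted p under 0.05, as had 1835 of the 15395 genes tested.

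Of 19 receptor genes tested, 3 were called lower and 1 higher in dnFOS, with a median of 0.00. These 4 are 21.1% of the list, against 15.0% of all genes tested. IL1RL1, the receptor of interleukin-33, was at 64.4 and 57.2 CPM in EV, 79.6 and 81.6 CPM in dnCEBP, and 32.2 and 32.9 CPM in dnFOS. The 3 groups did not overlap. IL1RL1 fell by 0.90 ± 0.10 SE on the log2 scale in dnFOS (edgeR adjusted p = 2.96e-07) and rose by 0.41 ± 0.093 SE in dnCEBP (adjusted p = 0.0224), although the rise was not called when any single EV or dnCEBP library was left out (0.32 without EV replicate 2, 0.50 without EV replicate 1, 0.42 without dnCEBP replicate 1 and 0.39 without dnCEBP replicate 2). LTBR, the lymphotoxin receptor that drives the non-canonical pathway, was at 21.9 and 20.6 CPM in EV and 14.1 and 12.3 CPM in dnFOS (-0.68 ± 0.15 SE, adjusted p = 0.00195). TNFRSF1A, the main TNF receptor, was called at -0.33 ± 0.10 SE (adjusted p = 0.0309) but not with library totals, limma-voom or the GC correction, nor without dnFOS replicate 2 (-0.20), EV replicate 1 (-0.28) or EV replicate 2 (-0.40). TLR1, which pairs with TLR2 to sense bacterial lipopeptides, rose from 47 and 51 counts in EV to 74 and 60 in the shallower dnFOS libraries (1.29 ± 0.28 SE, adjusted p = 0.00179). In dnCEBP, at 100 and 98 counts, TLR1 did not pass (0.96 ± 0.27 SE, adjusted p = 0.0778), but was called with no low-count filter (adjusted p = 0.0438), with the replicate block (0.0225) and without dnFOS replicate 1 (0.0468).

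Other non-chemokine targets of NF-kappaB gave 10 genes called lower and 0 higher of 26 tested in dnFOS, with a median of -0.54, where 7.76% of all genes tested were called lower and 7.24% higher. PTGS2, which encodes the inducible cyclooxygenase COX-2, was at 10.7 and 12.5 CPM in EV, 15.2 and 14.7 CPM in dnCEBP and 5.21 and 6.28 CPM in dnFOS (-1.03 ± 0.19 SE against EV, edgeR adjusted p = 0.000379). BCL2A1, a survival gene of the BCL2 family, was at 29.2 and 28.7 CPM in EV and 16.7 and 14.3 CPM in dnFOS (-0.89 ± 0.13 SE, adjusted p = 3.07e-05). The stress-response gene GADD45B changed by -0.88 ± 0.17 SE, the TNF receptor adaptor TRAF1 by -0.86 ± 0.21 SE and LIF, a cytokine of the interleukin-6 family, by -0.80 ± 0.15 SE. TRAF1 was not called without dnFOS replicate 2 (-0.64). The matrix protease gene MMP9 was counted 30 and 24 times in the EV libraries against 1 and 5 in those of dnFOS, a ratio of 0.197 after scaling for depth (95% exact interval 0.0694 to 0.458, counting error only). Its call (edgeR adjusted p = 0.0419) was lost with library totals and the GC correction, and without dnFOS replicate 1, EV replicate 1 or EV replicate 2 (log2 fold change -1.28, -2.16 and -2.37). DESeq2 gave no adjusted p for MMP9, and its log2 fold change there was -2.24. The other 4 called genes were TNFAIP2, PLAU, PLAUR and PIM1, at -0.60 to -0.50. TNFAIP2 was not called with the GC correction (-0.29) or without dnFOS replicate 2 (-0.45) or EV replicate 2 (-0.44), nor PLAUR without dnFOS replicate 2 (-0.52) or EV replicate 1 (-0.46). Over the alternatives the list gave 7 to 12 calls, with 7 without dnFOS replicate 2 and up to 3 of them higher with library totals alone. In dnCEBP the list gave 2 calls of 26, both higher, where 1.07% of all genes tested were called, 0.624% higher. They were SOD2, which encodes the mitochondrial superoxide dismutase, at 0.58 ± 0.085 SE (edgeR adjusted p = 0.000163), and the survival gene BCL2L1 at 0.52 ± 0.13 SE (adjusted p = 0.0306). The BCL2L1 call was lost with library totals and without dnCEBP replicate 1 (0.33), EV replicate 1 (0.57) or EV replicate 2 (0.46). In dnFOS, SOD2 was at 0.18 ± 0.087 SE (adjusted p = 0.182), at 0.27 and called with library totals alone (adjusted p = 0.0230), and at 0.015 with the GC correction.

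Caspase-1 and the other genes that process interleukin-1 beta and interleukin-18, 11 of which were tested, gave 0 calls by edgeR, DESeq2 or limma-voom in dnFOS against EV, with a median of -0.01 and a range from -0.39 to 0.30. Of all genes tested, 15.0% were called in that contrast by edgeR. By edgeR 2 of the 11 had an unadjusted p under 0.05, as had 4291 of the 15395 genes tested. The list gave 1 call, higher, with library totals alone and without dnFOS replicate 1 or EV replicate 1, 1 call, lower, with the GC correction and with only the 4 libraries compared, and 2 calls with the replicate block. For reference, 6 of the 12 chemokines tested were called lower in dnFOS and 0 higher, with a median of -0.94 and a range from -2.38 to 0.73. Of all genes tested, 7.76% were called lower and 7.24% higher. CXCL8, which encodes the neutrophil attractant interleukin-8, was at 249 and 261 CPM in EV, 292 and 283 CPM in dnCEBP, and 46.6 and 51.9 CPM in dnFOS (-2.38 ± 0.092 SE, edgeR adjusted p = 1.27e-17). The intervals of TNFAIP3, -1.24 to -0.54, and NFKBIA, -1.05 to -0.54, lay apart from that of CXCL8, -2.57 to -2.19. CXCL8 had the largest fall of the 12 chemokines, and this gap does not hold for all of them. The other called chemokines were CCL3 at -2.00, CCL3L1 at -1.44, CCL4L2 at -1.33, CCL2 at -1.01 ± 0.17 SE and CXCL2 at -0.88 ± 0.21 SE. The fall of CXCL2 was about that of TNFAIP3, at -0.89 ± 0.17 SE. In dnCEBP 1 of the 12 chemokines was called, where 1.07% of all genes tested were called, 0.448% lower. It was CCL3L1 at -0.50 ± 0.12 SE (edgeR adjusted p = 0.0254), a near-identical copy of CCL3 whose counts are uncertain. Its call was lost when any single EV or dnCEBP library was left out (-0.53 to -0.47).

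**Figure D4:**
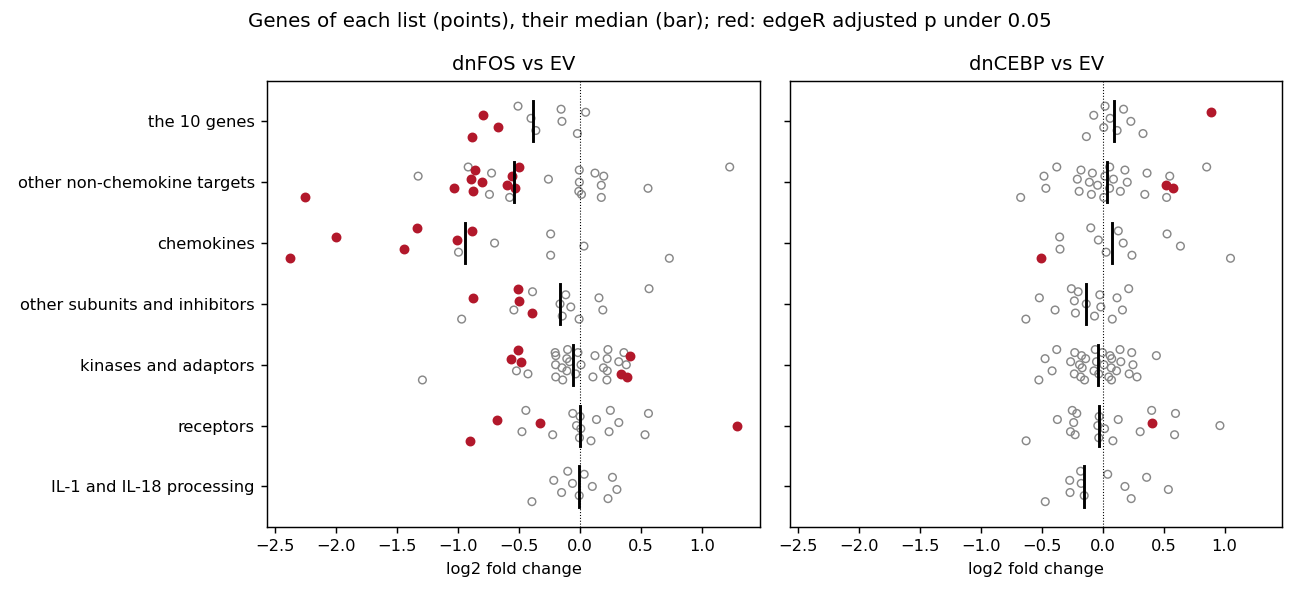
Log2 fold changes (x axis) of the tested genes of each list in dnFOS against EV (left) and dnCEBP against EV (right); points are genes, black bars medians, and red points passed an edgeR adjusted p of 0.05. In dnFOS the medians of the 10 genes (-0.38), the other non-chemokine targets (-0.54) and the chemokines (-0.94) lie left of 0, and those of the kinases (-0.06), receptors (0.00) and processing genes (-0.01) lie near it.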

How the data were processed

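Counts per gene of 6 KO52 RNA-seq libraries were analysed. Per the labels, total RNA was depleted of ribosomal RNA, amplified with 15 PCR cycles and sequenced as paired-end reads of 75 bases. The values deposited by the authors are raw counts, not normalized, and the submitters' processing notes name Trimmomatic, HISAT2, featureCounts of Subread and hg38, with no versions. The use of strand and the treatment of reads shared between near-identical genes are not given in the sources used here. Of 60612 IDs, 58394 matched GENCODE 29 (GRCh38), which gave coordinates and exonic lengths, and 27870 had at least 1 count.

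Tests on the counts used edgeR 4.0.16 (R 4.3.3). The filter on low counts was filterByExpr (minimum count 10), and libraries were scaled with TMM (factors 0.956 to 1.05). A robust quasi-likelihood model with a mean per group and no covariates was fitted to all 6 libraries (3 residual degrees of freedom, biological coefficient of variation 0.0961). P-values of the 3 two-sided contrasts were corrected with Benjamini-Hochberg across the 15395 genes, which were called at an adjusted p under 0.05. SEs were derived from the F statistic. Intervals cover the spread between libraries as fitted, and counting intervals cover counting error only. Replicates correlated at 0.981 to 0.987 and differed beyond sampling noise. The code was tested on simulated counts. Alternatives used DESeq2 1.42.0, limma 3.58.1 (voom), other scalings and filters, a GC content and length trend (mgcv 1.9.3), a replicate block and each library left out in turn.

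Members and lists were chosen with earlier results of these data known. The text names the 10 genes, list genes called in dnFOS at 1.5-fold or more (at most 6 per list, all called ones in dnCEBP), RELA, REL and CXCL8, and the 5 genes nearest in pattern to NFKBIA and IL1B. Called genes under 1.5-fold, marker genes, FOS, CEBPA and the called chemokines besides CXCL8 were named after their values were seen. CCL3L1 and CCL3L3 share 1 ID and were counted once. The 7 marker lists, of blast, T cell, B cell, erythroid, mature monocyte, endothelial and fibroblast or epithelial genes, were summed per library: B cell markers came to 11.3 to 19.5 CPM, erythroid to 0.967 to 4.03, endothelial to 63.8 to 79.5 and fibroblast or epithelial to 36.6 to 43.9, with MS4A1, PAX5, HBA1, CDH5, KDR, DCN and CDH1 at 3 counts or fewer in every library, and blast markers to 511 to 573 CPM in EV, 338 to 376 in dnCEBP and 438 to 482 in dnFOS.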

Additional observations from a re-analysis of the deposited data

Results flagged for a closer look

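The direct test between the peptides was past the threshold for 5 of the 10 genes, all lower in dnFOS. Of all genes tested 14.7% were called, 7.84% lower. For the 5 genes the effect of dnFOS differed from that of dnCEBP relative to the same EV libraries. The log2 difference was -0.66 for NFKBIA, -0.90 for TNFAIP3 and -0.91 for NFKB2, which were also called lower in dnFOS against EV. For TNF the log2 difference was -1.25, with dnCEBP above EV and dnFOS overlapping EV. For IL18 it was -0.32, where neither peptide differed from EV past the threshold, and 7 of 14 alternatives did not call it.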

How the results depend on the processing

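The calls of NFKBIA, TNFAIP3 and NFKB2 in dnFOS against EV were kept in all 14 alternatives without the replicate block, and the count over the 10 genes was 3 in each. Between the peptides it was 4 to 6, where the main fit called 14.7% of all genes tested, and 15.0% in dnFOS against EV. In dnCEBP against EV it was 0 with library totals alone and with DESeq2, and 0 to 1 with each library left out. Over all genes, leaving out each library gave 972 to 2426 calls in dnFOS against EV (972 without dnFOS replicate 2 and 1059 without EV replicate 1), 33 to 314 in dnCEBP against EV (33 without dnCEBP replicate 2, 53 without EV replicate 2 and 81 without EV replicate 1) and 1182 to 2262 between the peptides (1182 without dnFOS replicate 2 and 1349 without dnCEBP replicate 1). A lone library was assumed to vary like the others. The calls in dnCEBP against EV numbered 255 with no low-count filter, 297 with only the 4 libraries compared and 264 with the GC and length trend removed, against 165. In dnFOS against EV the GC correction left 1340 of 2085 calls lower.

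Replicate numbers are shared across groups, but the labels do not say that a number marks a shared culture or day. Deviations of same-numbered libraries from their group means correlated at 0.227 to 0.332 over 6873 genes. With the replicate block 488 genes were called in dnCEBP against EV and 3172 in dnFOS against EV, and 4 of the 10 genes, ICAM1 being added (adjusted p = 0.0393). Between the peptides the block gave 6 of the 10 genes, again with ICAM1 (adjusted p = 0.0309).

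Log2 values that turned sign were those of genes not called in that contrast. With library totals alone they were -0.0143 for TNFAIP3 and -0.0031 for ICAM1 in dnCEBP, 0.0393 for NFKB1 between the peptides, and 0.0789 for IL1B and 0.0936 for BCL2L1 in dnFOS. With the GC correction they were -0.26 for BIRC3, -0.0338 for REL and 0.14 for BCL2L1 in dnFOS. With each library left out, values in dnCEBP ran from -0.28 to 0.0295 for NFKBIA, -0.21 to 0.26 for TNFAIP3, -0.0098 to 0.26 for IL1B, -0.10 to 0.14 for ICAM1 and -0.16 to 0.14 for REL. In dnFOS they ran from -0.13 to 0.23 for BIRC3, -0.70 to 0.0753 for TNF, -0.16 to 0.12 for IL1B and -0.0675 to 0.0465 for BCL2L1. The cause was not tested. The counts of the pathway lists under these alternatives were added after seeing the data. Counts per library were 48 to 274 for TNF, 53 to 197 for RELB, 47 to 100 for TLR1, 41 to 153 for NFKBIB and 1 to 30 for MMP9, which limits the precision of their values.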

Other observations

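Genes whose pattern was most like that of NFKBIA were found by the Euclidean distance between log2 CPM profiles over the 6 libraries, each centred on its own mean. The nearest with a symbol were AL033519.2 (distance 0.163), EMP3 (0.185), DRG1 (0.185), PLPP1 (0.212) and PTS (0.215). The nearest of the other 9 genes was RELB at 0.377, and TNFAIP3 was at 0.694. For IL1B the nearest were PSMA7 (0.0673), PVR (0.0781), PSME1 (0.0870), PADI4 (0.0895) and TMED4 (0.0900), and the nearest of the other 9 genes was NFKB1 at 0.309. The distances are descriptions over 6 libraries that share groups and depth.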
